A study of Danio rerio with 13 samples.

Results

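The chemokines and chemokine receptors of zebrafish skin were taken as all genes in the deposited count table whose symbol begins with ccl, cxcl, ccr, cxcr, xcr or ackr and a digit, which matched 78 of 32105 genes. Of these, 73 had at least 10 counts over the 13 libraries and form the set described here, namely 28 CC ligands, 17 CXC ligands, 13 ccr, 8 cxcr, 2 xcr and 5 ackr genes. The 5 genes left out were ccl33.2, ccl34b.3, ccl39.3, ccl39.4 and ccl39.5. The gene name table gives 20 of the 73 a symbol in human form, and where such a symbol is shared by 2 genes the Ensembl identifier tells them apart. Among the members, CXCR4, ACKR3, ACKR4, CCR6, CCR9 and XCR1 each name 2 zebrafish genes.

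Chemokines are small secreted proteins that direct the movement of leucocytes and other cells, and they act through receptors that cross the cell membrane and couple to G proteins. The CC and CXC ligands are named for the spacing of their first cysteines, and their receptors are the ccr and cxcr genes. The xcr genes also encode chemokine receptors. The atypical ackr receptors bind chemokines without signalling through G proteins, which removes or redistributes the ligand. In skin these genes are known from mammals for placing T cells and dendritic cells in the resting tissue and for calling neutrophils and macrophages to wounds and infection. In zebrafish many of them exist as several copies that lie side by side in the genome.

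RNA came from the skin of male zebrafish of the AB strain at 3 months of age, and the groups were tert-/- (HOM, n = 3), tert+/- (HET, n = 5) and tert+/+ (WT, n = 5). The tert gene encodes the catalytic protein of telomerase, the mutant line is hu3430, and the allele is a nonsense mutation carried on both chromosomes in HOM and on a single chromosome in HET fish, so tert RNA need not be lost and does not test the labels. The library titles number the samples separately, but nothing in the labels says which fish, clutch or tank each came from, and p-values therefore measure the spread between these samples. In these libraries tert stood at 15.7, 16.4 and 37.3 CPM in HOM skin, 16.9, 23.4, 19.1, 14.5 and 40.5 CPM in HET skin and 11.961, 13.4, 9.29, 7.09 and 11.7 CPM in WT skin. On this scaled level all 8 HOM and HET libraries lay above all 5 WT libraries. By library totals alone the groups overlapped, with tert in HOM2, HET3 and HET4 below WT2. The log2 fold change of tert was 1.11 ± 0.37 (SE) in HOM against WT and 1.097 ± 0.33 in HET against WT, and neither passed the edgeR test (adjusted p = 0.9999 and 0.794).

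Library totals ran from 15709310 to 30249877 counts, of which 19.9% (HOM1) to 56.4% (HOM3) came from mitochondrially encoded genes. The chemokine and receptor genes together took 3980 (HOM3) to 52976 (HET4) counts. Levels are given as CPM, counts scaled to the library total multiplied by the TMM factor that edgeR gave each library. These factors ran from 0.769 in HOM3 to 1.43 in HOM1. This is the scaled level, and levels by library totals alone leave the factor out. Genes are ranked by scaled level after division by gene length (RPKM, the CPM per kilobase). All 15 keratinocyte markers with a symbol in the table were detected, at a summed level of 17475 to 24041 CPM in HOM skin, 12644 to 26183 CPM in HET skin and 8270 to 34707 CPM in WT skin, which fits the tissue label. The 9 matched skeletal muscle markers summed to 2700 to 33226 CPM in HOM, 5017 to 30738 CPM in HET and 1477 to 48830 CPM in WT samples. Muscle RNA was thus part of these samples, with 48830 CPM in WT5 beside 8270 CPM of keratinocyte markers. In WT4 the muscle sum was 1477 CPM beside 32368 CPM. WT1 and WT5 stood apart by their liver markers, which summed to 682 to 1592 CPM in HOM skin, 910 to 1644 CPM in HET skin and 765 to 50402 CPM in WT skin. In bulk RNA, fewer cells of a type and less RNA per cell cannot be told apart.

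The family was dominated by a handful of ligands. Per kilobase, the most abundant were ccl25b with a mean of 308 RPKM over the 13 libraries, ccl27b with 219 RPKM and ccl19a.2 with 209 RPKM. After these came cxcl18b (42.5 RPKM), ccl19b (35.4 RPKM), cxcl12b (17.9 RPKM), CXCL12 (17.0 RPKM), ACKR3 (ENSDARG00000058179, 11.8 RPKM), ccl27a (11.098 RPKM) and CXCR4 (ENSDARG00000041959, 10.9 RPKM). These 10 genes were the only members with a mean of 10 RPKM or more. A further 31 lay between 1 and 10 RPKM, and 32 lay under 1 RPKM, of which 20 were receptors. The median level was 2.29 RPKM for ligands and 0.393 RPKM for receptors. All 13 libraries had counts for 54 members, 34 ligands and 20 receptors.

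**Figure D1:**
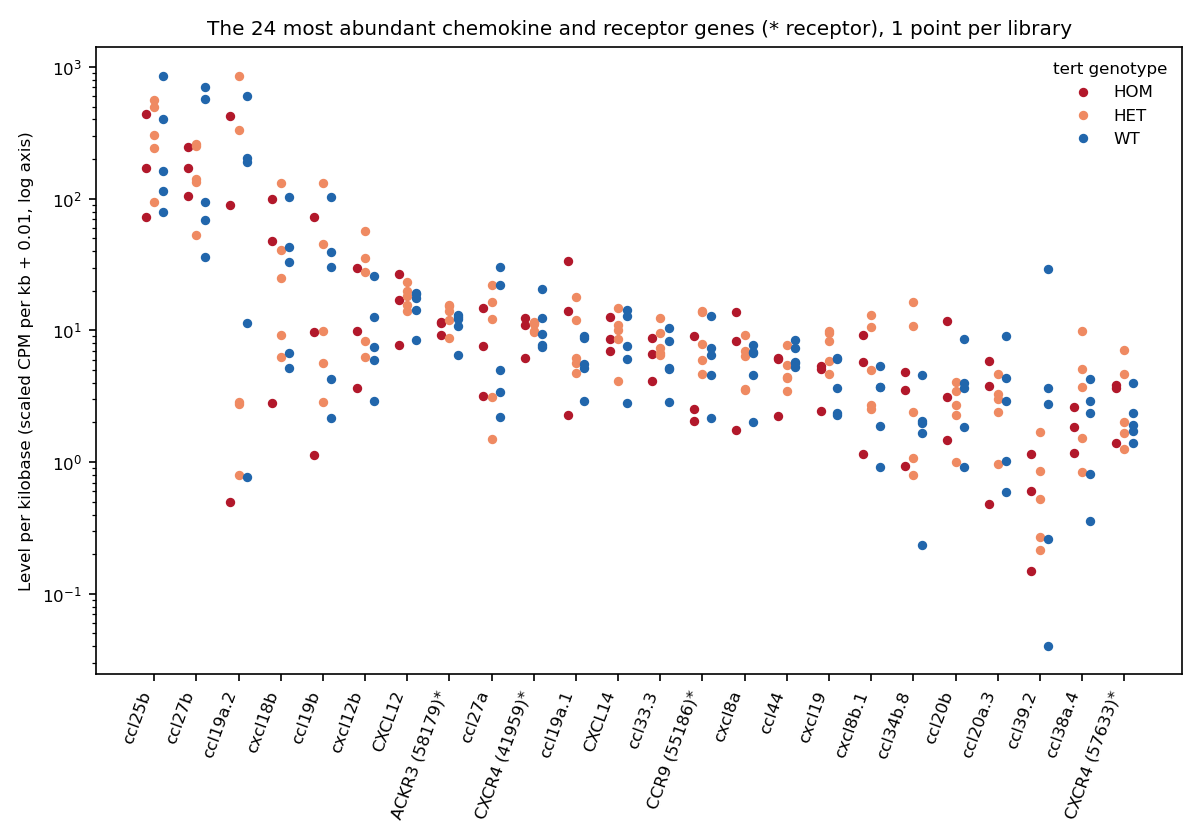
The 24 members with the highest mean level per kilobase, with each point a library (red HOM, orange HET, blue WT), the vertical log axis in scaled CPM per kilobase plus 0.01, and receptors marked with an asterisk. The 3 leading ligands, ccl25b, ccl27b and ccl19a.2, average over 200 RPKM, while ccl19a.2 and ccl39.2 span the widest ranges among the genes shown and ACKR3 (ENSDARG00000058179) the narrowest.

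The summed ligand level differed far more between libraries than the summed receptor level. The ligands ccl25b, ccl19a.2 and ccl27b held 60.8% of the summed CPM of all members, so the ligand sums rest mainly on these genes. Ligands summed to 532, 1275 and 236 CPM in HOM skin, to 490, 853, 982, 1733 and 326 CPM in HET skin and to 338, 589, 932, 1863 and 338 CPM in WT skin. Receptors summed to 80.1, 69.8 and 94.0 CPM in HOM skin, to 92.8, 104, 85.5, 87.8 and 110.1 CPM in HET skin and to 103, 72.5, 96.9, 79.8 and 81.8 CPM in WT skin. The 3 genotypes overlapped in both sums.

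No chemokine or receptor gene passed the edgeR test in any comparison of genotypes. The question asked of each comparison was which genes differ in skin when 1 or both copies of tert are mutated. Of the 73 members, 56 had enough counts to be tested (36 ligands and 20 receptors), and the 17 others had a mean of at most 0.773 CPM. In HOM against WT, 0 of 56 members were called by edgeR, where the share over all 19141 genes was 0%, and the smallest adjusted p among members was 0.9999. At an unadjusted p under 0.05 there were 2 members, beside 2.73% of all genes. They were ccr12a with a higher level, beside 0.752% of all genes, and ccl39.2 with a lower one, beside 1.97%. In HET against WT, 0 of 56 members were called, again with 0% of all genes, and the smallest edgeR adjusted p was 0.812. At an unadjusted p under 0.05 there were 3 members in HET against WT, beside 5.49% of all genes. They were cxcl19 and cxcr3.2 with higher levels, beside 2.01% of all genes, and ccl39.2 with a lower one, beside 3.48%. In HOM against HET, 0 of 56 members were called (0% of all genes, smallest edgeR adjusted p 0.9998), and 0 had an unadjusted p under 0.05, beside 2.74% of all genes. DESeq2 called 1 of 59 members in HOM against WT, beside 0.207% of all genes. That gene was ccl34b.9, with a higher level, as in 0.0207% of all genes. DESeq2 called 0 of 62 members in HET against WT, beside 0.517% of all genes, and 0 of 73 in HOM against HET, beside 0.00379%. At an unadjusted p under 0.05, DESeq2 gave 6 of all 73 members in HOM against WT (3.28% of all genes), 5 for HET against WT (5.75%) and 3 for HOM against HET (3.3%). These counts include members with few reads and no adjusted p, such as CXCR1 (ENSDARG00000054975) in HOM against WT, with 12 counts in HOM3.

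Fold changes of the members centred slightly above those of all genes in both comparisons with WT. The median log2 fold change of the 56 members was 0.18 in HOM against WT, with 35 above 0, against a median of -0.05 and 43.2% above 0 over all genes. In HET against WT the median was 0.26 with 41 of 56 above 0, and over all genes it was -0.04 with 45.6% above 0. In HOM against HET it was -0.12 with 20 of 56 above 0, and over all genes it was -0.01 with 48.8% above 0. The first 2 comparisons share the WT libraries, and the median log2 level of the members itself had an SD of 0.24 between libraries of a genotype. Some marker lists moved the same way in HET against WT, with 10 of 11 pan-leucocyte markers (median log2 fold change 0.52) and 13 of 14 endothelium markers (median 0.66) above 0. In HOM against WT these were 8 of 11 (median 0.40) and 12 of 14 (median 0.27). Other lists moved the other way in HET against WT. Above 0 were 8 of 28 interferon response genes (median -0.25) and 6 of 15 keratinocyte markers (median -0.31). The same held for 3 of 13 fibroblast and dermal matrix markers (median -0.16) and 0 of 17 liver markers (median -3.94). In HOM against WT, 14 of 28 interferon response genes (median -0.01) and 12 of 13 fibroblast and dermal matrix markers (median 0.35) were above 0. Keratinocyte markers there had 2 of 15 above 0 (median -0.34) and liver markers 0 of 17 (median -4.85). The part of these lists in the members' medians was not tested. CXC ligands had a log2 fold change above 0 in 12 of 13 genes in HOM against WT (median 0.38) and in 12 of 13 in HET against WT (median 0.30). Those 13 include the copies cxcl11.1, cxcl11.3, cxcl11.4, cxcl11.5 and cxcl11.6 as separate genes. These copies and cxcl18b shared the same 7 highest libraries, so the counts are not of independent genes. Receptors had a median of 0.00 in HOM against WT and of 0.32 in HET against WT. Without scaling beyond library totals, the members had a median of 0.00 in HOM against WT (all genes -0.21), 0.04 in HET against WT (all genes -0.29) and -0.07 in HOM against HET (all genes 0.08). The share of the variance of log2 CPM that lay between genotype means had a median of 9.93% in members and of 10.05% in all genes. With groups this small, such a share is above 0 also where genotype has no effect, so it is not the size of an effect.

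**Figure D2:**
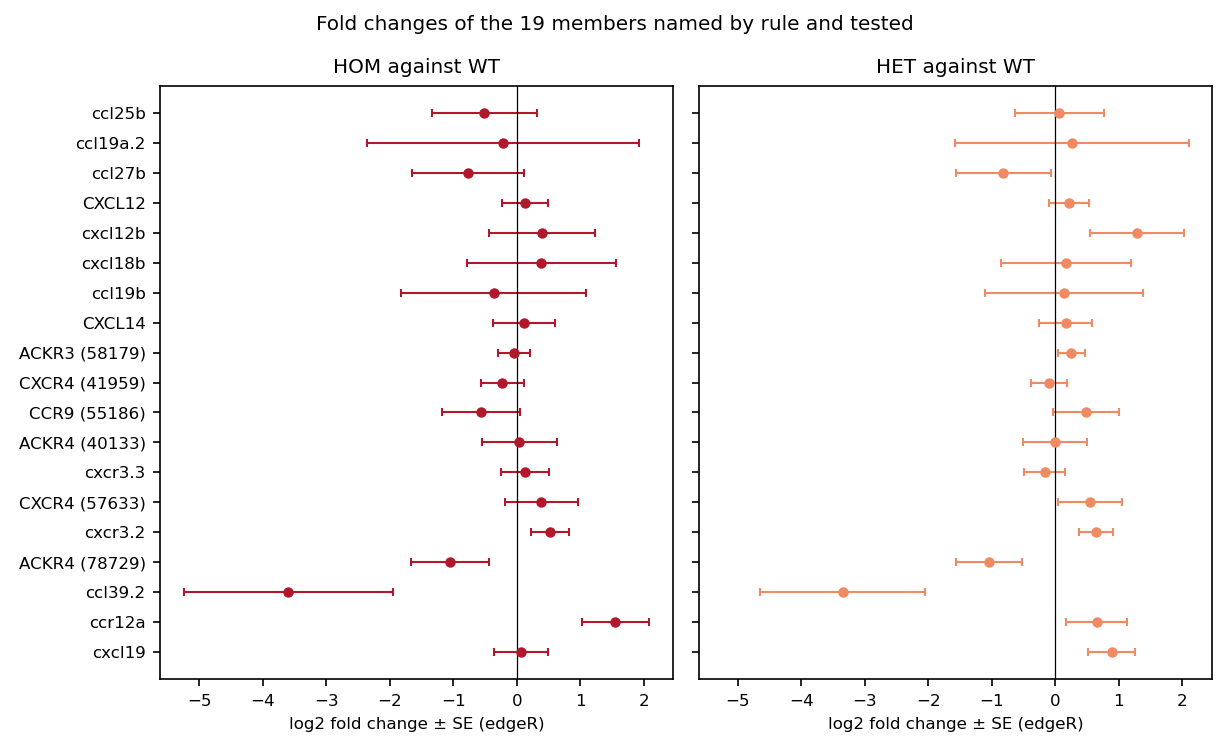
Log2 fold change from edgeR (horizontal axis) with its standard error for the 19 members that were named by rule and tested, in HOM against WT (left, red) and HET against WT (right, orange). The widest error bars belong to ccl19a.2 and ccl39.2, and no gene passed the test in either comparison.

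The 3 leading ligands varied widely within each genotype. The gene ccl25b, whose mammalian counterpart CCL25 draws T cells to the thymus and gut through CCR9, stood at 182, 462 and 77.2 CPM in HOM skin, 255, 589, 323, 521 and 98.9 CPM in HET skin and 122, 172, 424, 909.5 and 84.3 CPM in WT skin. Its levels overlapped between all 3 genotypes, and its log2 fold change was -0.51 ± 0.82 (SE) in HOM against WT and 0.06 ± 0.70 in HET against WT. The gene ccl27b is a counterpart of CCL27, which keratinocytes of mammalian skin make to hold T cells that carry CCR10. It stood at 60.2, 86.5 and 37.3 CPM in HOM skin, 50.2, 91.9, 47.3, 88.0 and 18.7 CPM in HET skin and 24.2, 33.0, 202, 250.1 and 12.6 CPM in WT skin. WT3 and WT4 were the highest libraries and WT5 the lowest, and the log2 fold change was -0.77 ± 0.88 in HOM against WT and -0.82 ± 0.75 in HET against WT. Without WT4 these values were -0.15 in HOM against WT and -0.20 in HET against WT. The summed keratinocyte markers were also highest in WT3 (34707 CPM) and WT4 (32368 CPM) and lowest in WT5 (8270 CPM). WT1, low in ccl27b, had 24303 CPM of them, and by list mean WT4 (0.32) stood below HET2 (0.58). The part of these markers in the ccl27b level was not tested. The receptor gene for ccl27b, ccr10, had at most 0.327 CPM in any library. The related ccl27a ranged between 0.751 and 15.4 CPM, with HET5 lowest and WT1 highest.

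The gene ccl19a.2 had the largest spread of any member. CCL19 in mammals guides mature dendritic cells and T cells to lymph nodes through CCR7. The level of ccl19a.2 was 61.1, 291 and 0.331 CPM in HOM skin, 0.536, 1.94, 227, 588 and 1.88 CPM in HET skin and 7.79, 138, 129, 409 and 0.518 CPM in WT skin. Within each genotype some libraries held over 50 CPM and others under 10 CPM. Its log2 fold change was -0.22 ± 2.14 (SE) in HOM against WT and 0.26 ± 1.84 in HET against WT. The SD of its log2 level over the 13 libraries was 4.01, and ccl19b (2.24), cxcl11.3 (2.19) and ccl39.2 (2.14) were the other members with an SD of 2 or more. Such an SD was found in 7.14% of the tested members and in 1.95% of all genes. The median SD was 1.15 for ligands, 0.73 for receptors and 0.58 for all genes, and the members had fewer reads, with a median of 0.52 log2 CPM, not divided by length, against 2.39 log2 CPM for all genes. Among ligands 36.1% were in the tenth of all genes with the largest SD, and among receptors 5%.

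**Figure D3:**
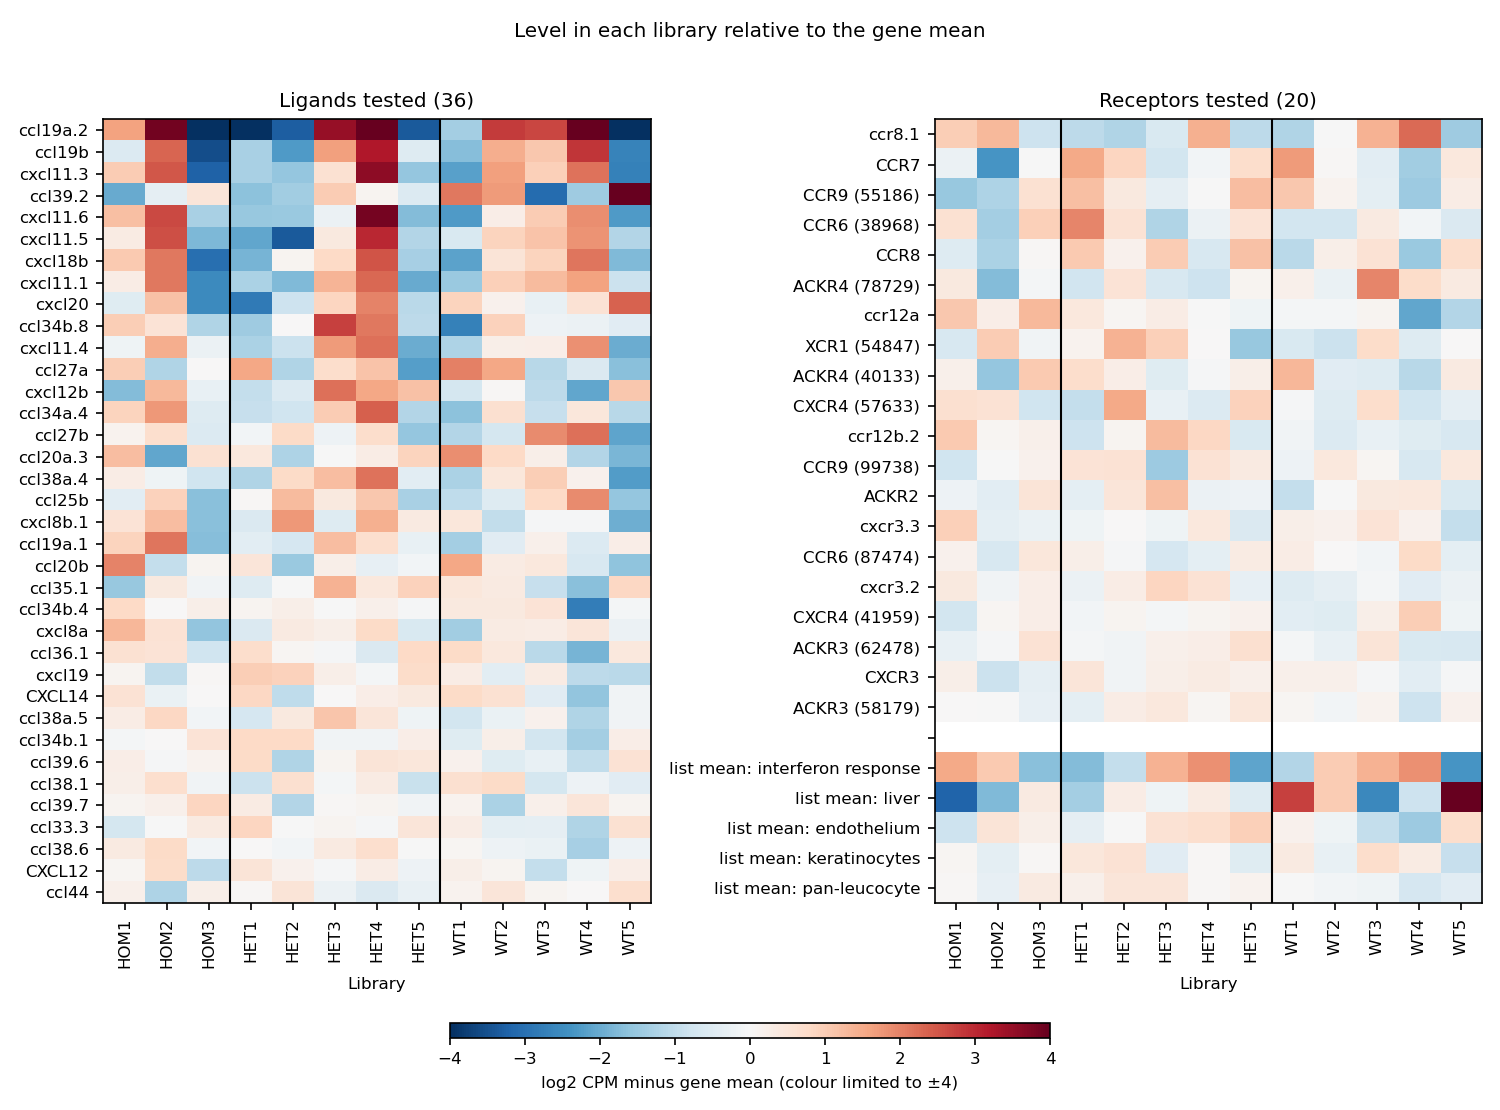
Level of the 36 ligands (left) and 20 receptors (right) tested in each library, as log2 CPM minus the mean of the gene (blue low, red high, colour limited to ±4), with genes ordered by SD and black lines between HOM, HET and WT. The lowest rows at the right give the means of 5 marker lists, of the 4 ligands with the widest spread ccl19a.2, ccl19b and cxcl11.3 are high in most of the libraries in which the interferon response list is high, while ccl39.2 is highest in WT5, where that list is lowest.

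The libraries high in ccl19a.2 were high in other members too. HOM1, HOM2, HET3, HET4, WT2, WT3 and WT4 held its 7 highest levels, and the same 7 libraries were the 7 highest for 7 of the 55 other members tested (12.7%), beside 1.9% of all genes. These members were cxcl11.1, cxcl11.3, cxcl11.4, cxcl11.5, cxcl11.6, cxcl18b and ccr8.1. The cxcl11 copies count as separate members here. The gene ccl19a.2 was picked for its spread in these same data, and the 7 libraries were read from its levels. In mammals CXCL11 is induced by interferon and draws T cells through CXCR3, and in zebrafish cxcl18b is made at sites of inflammation and attracts neutrophils. The 7 cxcl11 copies that were kept summed to 4.49, 16.4 and 0.662 CPM in HOM skin, to 0.655, 0.547, 5.49, 28.7 and 0.600 CPM in HET skin and to 0.816, 6.09, 5.83, 11.33 and 0.592 CPM in WT skin. The level of cxcl18b was 52.2, 109 and 3.06 CPM in HOM skin, 6.90, 27.3, 44.6, 146 and 10.1 CPM in HET skin and 5.74, 36.4, 47.1, 113 and 7.41 CPM in WT skin. The gene ccr8.1, a copy of the receptor CCR8 that in mammals marks T cells of the skin, stood at 1.95, 2.43 and 0.497 CPM in HOM skin, 0.417, 0.364, 0.588, 2.65 and 0.413 CPM in HET skin and 0.362, 0.94, 2.58, 4.82 and 0.296 CPM in WT skin. The 7 libraries are 2 of 3 HOM, 2 of 5 HET and 3 of 5 WT libraries, so the genotypes overlapped in each of these genes.

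The level of ccl19b followed most of the same libraries, at 7.24, 54.0 and 0.828 CPM in HOM skin, 4.22, 2.13, 33.6, 98.5 and 7.39 CPM in HET skin and 3.17, 29.3, 22.6, 76.9 and 1.59 CPM in WT skin. HET5, at 7.39 CPM, stood just above HOM1 at 7.24 CPM, so that its 7 highest libraries were not the same. Both ccl19a copies lie within 3 places of each other in the gene order of the RefSeq table, and ccl19a.1 stood at 13.2, 31.9 and 2.15 CPM in HOM skin, 5.36, 4.49, 16.9, 11.4 and 5.85 CPM in HET skin and 2.75, 5.23, 8.30, 4.88 and 8.59 CPM in WT skin. HOM2 was highest and HOM3 lowest for ccl19a.1, with a much narrower spread than for ccl19a.2.

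Genes of the interferon response list, 28 of which were tested, split these libraries in the same way. The list mean, on a log2 scale centred for each gene, was 1.51, 1.05 and -1.69 in HOM skin. In HET skin it was -1.73, -0.95, 1.3998, 1.83 and -2.12, and in WT skin it was -1.18, 1.01, 1.39, 1.83 and -2.37. Of its 28 genes, 24 (85.7%) had the same 7 highest libraries as ccl19a.2. Summed, all 28 matched genes were detected, at 332 to 2551 CPM in HOM skin, 341 to 4079 CPM in HET skin and 269 to 3988 CPM in WT skin. The list of inflammatory cytokines and NF-kB response genes, 16 of which were tested, had the same 7 highest libraries in its mean. That mean spanned a narrower range. Summed over all 26 matched genes, the list was highest in WT1 (454 CPM), outside those 7, while HOM2 stood at 224 CPM. Its mean was 0.42, -0.003 and -0.36 in HOM skin, -0.36, -0.17, 0.31, 0.60 and -0.35 in HET skin and -0.12, 0.23, 0.49, 0.24 and -0.93 in WT skin, and 5 of its 16 genes (31.3%) had these 7 highest libraries. The pan-leucocyte list mean did not follow these libraries, with 0.03, -0.34 and 0.35 in HOM skin, 0.20, 0.47, 0.50, 0.04 and 0.14 in HET skin and -0.01, -0.10, -0.16, -0.68 and -0.44 in WT skin. With the interferon list mean as a covariate, the log2 fold change of ccl19a.2 was -0.12 in HET against WT and no member was called. The part of these lists in the ccl19a.2 levels was not tested. Since the libraries fall into separate clusters in these genes, no correlation with ccl19a.2 is given.

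**Figure D4:**
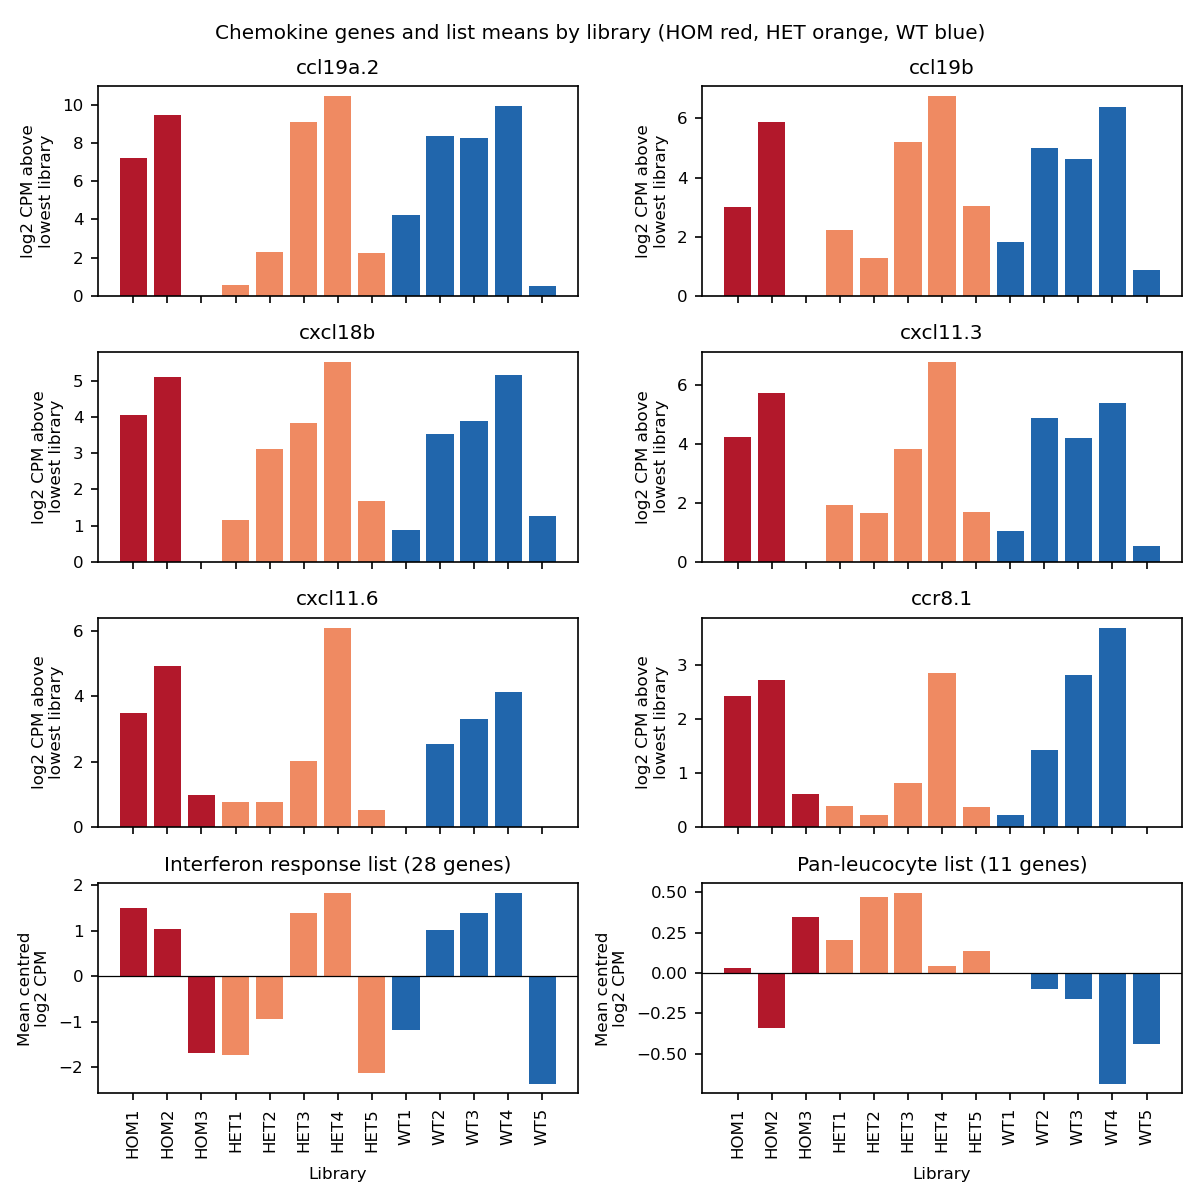
Levels of ccl19a.2, ccl19b, cxcl18b, cxcl11.3, cxcl11.6 and ccr8.1 by library, as log2 CPM above the lowest library, and the mean centred log2 CPM of the interferon response and pan-leucocyte lists (bars, HOM red, HET orange, WT blue). HOM1, HOM2, HET3, HET4, WT2, WT3 and WT4 are high in ccl19a.2 and in the interferon response list, and the pan-leucocyte list has another order.

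The ligands CXCL12 and cxcl12b act through CXCR4 in the movement and retention of leucocytes and stem cells, and ACKR3 takes up the same ligand without G protein signalling. CXCL12 (ENSDARG00000037116) stood at 52.0, 81.1 and 23.5 CPM in HOM skin, 70.5, 55.9, 47.8, 60.9 and 43.0 CPM in HET skin and 57.9, 53.2, 25.6, 43.3 and 58.8 CPM in WT skin. Its log2 fold change was 0.13 ± 0.36 (SE) in HOM against WT and 0.22 ± 0.31 in HET against WT, and the genotypes overlapped. The level of cxcl12b was 10.4, 84.9 and 28.2 CPM in HOM skin, 18.0, 23.6, 161, 101 and 79.0 CPM in HET skin and 21.2, 36.1, 16.9, 8.19 and 74.0 CPM in WT skin, with HET3 highest and WT4 lowest. For cxcl12b the log2 fold change was 0.40 ± 0.84 in HOM against WT and 1.29 ± 0.74 in HET against WT, and neither passed (edgeR adjusted p = 0.9999 and 0.972). The value in HOM against WT was -0.70 without HOM2. HET3, HET4, HOM2, HET5 and WT5, the 5 libraries highest in cxcl12b, were also the 5 highest in the mean of the endothelium list, at 0.50 to 0.94. All 14 matched endothelium markers were detected, at a sum of 60.2 to 189 CPM in HOM skin, 84.0 to 297 CPM in HET skin and 41.3 to 221 CPM in WT skin, and their part in the cxcl12b level was not tested.

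The more abundant CXCR4 and ACKR3 genes were among the steadiest members. The more abundant CXCR4 gene (ENSDARG00000041959) stood at 10.3, 18.3 and 20.9 CPM in HOM skin, 16.3, 18.8, 16.7, 18.9 and 19.4 CPM in HET skin and 13.0, 12.5, 20.7, 34.7 and 15.6 CPM in WT skin. WT4 was the highest library and HOM1 the lowest, with a log2 fold change of -0.23 ± 0.33 (SE) in HOM against WT. The second CXCR4 gene (ENSDARG00000057633) stood at 6.61, 6.33 and 2.401 CPM in HOM skin, 2.14, 12.2, 3.46, 2.85 and 8.07 CPM in HET skin and 4.08, 2.94, 6.92, 2.38 and 3.30 CPM in WT skin. HET2 was highest, HET1 was lowest, and the genotypes overlapped. The more abundant ACKR3 gene (ENSDARG00000058179) stood at 22.7, 22.3 and 18.0 CPM in HOM skin, 17.0, 27.5, 30.008, 23.5 and 30.5 CPM in HET skin and 23.9, 20.9, 24.9, 12.7 and 25.5 CPM in WT skin. Its SD of log2 CPM was 0.35, WT4 was its lowest library, and its log2 fold change was -0.04 ± 0.25 in HOM against WT and 0.25 ± 0.22 in HET against WT. The second ACKR3 gene (ENSDARG00000062478) ranged between 0.629 and 1.65 CPM. CXCL14, a ligand of epithelia that mammalian skin makes at rest, stood at 21.9, 12.1 and 14.9 CPM in HOM skin, 25.8, 7.11, 14.9, 17.5 and 19.1 CPM in HET skin and 24.7, 22.1, 10.6, 4.88 and 13.1 CPM in WT skin. HET1 was highest and WT4 lowest, and its log2 fold change was 0.11 ± 0.48 in HOM against WT.

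Receptor genes for CCL25 and CCL19 overlapped between the genotypes. The more abundant CCR9 gene (ENSDARG00000055186), a receptor for CCL25 in mammals, stood at 3.79, 4.70 and 16.9 CPM in HOM skin, 25.6, 14.7, 8.70, 11.101 and 26.2 CPM in HET skin and 23.7, 12.1, 8.51, 4.01 and 13.6 CPM in WT skin. HOM1, WT4 and HOM2 were the lowest libraries, and the log2 fold change was -1.04 ± 0.63 (SE) in HOM against HET, which did not pass (edgeR adjusted p = 0.9998). The value was -2.02 without HOM3 and -0.65 without HOM1. CCR7, the receptor for CCL19 in mammals, ranged between 0.0495 CPM in HOM2 and 2.14 CPM in WT1. ACKR4 in mammals takes up CCL19, CCL21 and CCL25, and its more abundant gene (ENSDARG00000040133) stood at 8.096, 2.38 and 14.7 CPM in HOM skin, 11.7, 8.56, 5.03, 6.91 and 8.26 CPM in HET skin and 18.1, 5.11, 4.98, 3.25 and 9.03 CPM in WT skin. WT1 was highest, HOM2 was lowest, and the log2 fold change was 0.04 ± 0.59 in HOM against WT. The second ACKR4 gene (ENSDARG00000078729) stood at 2.68, 0.544 and 1.904 CPM in HOM skin, 1.13, 2.98, 1.24, 1.1 and 2.18 CPM in HET skin and 2.33, 1.64, 7.91, 3.37 and 2.59 CPM in WT skin. WT3 was its highest library, and its log2 fold change was -1.05 ± 0.61 in HOM against WT and -1.05 ± 0.52 in HET against WT, with edgeR adjusted p = 0.9999 and 0.924. When any library was left out, these values ran from -1.54 to -0.53 and from -1.33 to -0.52. ACKR2, which takes up inflammatory CC ligands in mammals, ranged between 0.211 and 1.24 CPM.

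The genes cxcr3.2 and cxcr3.3, which neighbour each other, are copies of CXCR3. In zebrafish cxcr3.2 serves the recruitment of macrophages and cxcr3.3 acts as a scavenging receptor for the same ligands. The level of cxcr3.2 was 3.37, 2.33 and 3.06 CPM in HOM skin, 2.14, 3.16, 4.71, 3.88 and 2.03 CPM in HET skin and 1.75, 1.96, 2.44, 1.86 and 2.15 CPM in WT skin. WT3, the highest WT library, exceeded HOM2, HET1 and HET5, so both comparisons overlapped. The log2 fold change of cxcr3.2 was 0.52 ± 0.31 (SE) in HOM against WT and 0.64 ± 0.27 in HET against WT, where the edgeR adjusted p was 0.834. The level of cxcr3.3 was 13.1, 5.15 and 5.55 CPM in HOM skin, 5.95, 6.80, 6.01, 8.97 and 4.504 CPM in HET skin and 7.88, 7.65, 9.82, 7.55 and 3.41 CPM in WT skin, with HOM1 highest and WT5 lowest, and its log2 fold change was 0.13 ± 0.38 in HOM against WT and -0.17 ± 0.33 in HET against WT. The third gene, CXCR3, ranged between 0.445 and 1.25 CPM.

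The edgeR tests at an unadjusted p under 0.05 also picked ccr12a, cxcl19 and ccl39.2. The receptor gene ccr12a stood at 1.19, 0.643 and 1.41 CPM in HOM skin, 0.714, 0.547, 0.654, 0.516 and 0.45 CPM in HET skin and 0.483, 0.491, 0.565, 0.0581 and 0.185 CPM in WT skin. On the scaled level every HOM library was above every WT library. The log2 fold change was 1.55 ± 0.52 (SE) in HOM against WT, 0.65 ± 0.48 for HET against WT and 0.90 ± 0.53 for HOM against HET. None passed, with edgeR adjusted p = 0.9999, 0.978 and 0.9998. The value in HOM against WT stayed between 1.31 and 1.82 when any library was left out. Its relative ccr12b.2 stood at 0.651, 0.297 and 0.331 CPM in HOM skin, 0.119, 0.304, 0.785, 0.55 and 0.15 CPM in HET skin and 0.242, 0.164, 0.212, 0.174 and 0.148 CPM in WT skin. All HOM libraries were again above all WT libraries, with a log2 fold change of 1.19 ± 0.58 in HOM against WT (edgeR adjusted p = 0.9999). These levels rest on few reads, with 28, 6 and 4 counts of ccr12b.2 in HOM skin and 3 to 8 counts in WT skin. For ccr12a there were 51, 13 and 17 counts in HOM skin and 1 to 16 counts in WT skin. By library totals alone, HOM and WT overlapped in both genes. There HOM2 lay below WT1, WT2 and WT3 for ccr12a, and HOM2 and HOM3 lay below WT1 for ccr12b.2. On the scaled level, ccr12a and ccr12b.2 were the 2 members of 56 whose HOM libraries all lay above the WT libraries, beside 0.439% of all genes. In 0 members did the HOM libraries all lie below, beside 0.742% of all genes. Groups separated in 0 members in HET against WT (0.366% of all genes higher and 0.199% lower) and in 0 members in HOM against HET (0.972% higher and 1.53% lower). The third copy, ccr12b.1, had at most 10 counts in any library and was not tested by edgeR, at 0.116, 0.0495 and 0 CPM in HOM skin, 0.0595, 0.0607, 0, 0.172 and 0 CPM in HET skin and 0.302, 0.123, 0.177, 0.116 and 0.0741 CPM in WT skin. It did not share the higher levels in HOM, with a DESeq2 log2 fold change of -1.26 ± 1.11 in HOM against WT.

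The ligand gene cxcl19 stood at 3.72, 1.68 and 3.56 CPM in HOM skin, 6.84, 6.62, 4.05, 3.23 and 5.82 CPM in HET skin and 4.23, 2.54, 4.31, 1.63 and 1.59 CPM in WT skin. HET1, HET2 and HET5 were above all other libraries, while HET3 and HET4 lay within the WT range. Its log2 fold change was 0.89 ± 0.37 (SE) in HET against WT, 0.06 ± 0.42 in HOM against WT and -0.83 ± 0.43 in HOM against HET, with edgeR adjusted p = 0.834, 0.9999 and 0.9998. The genes cxcl8b.1 and cxcl8b.3, which neighbour cxcl19, are copies of CXCL8, the main attractant of neutrophils. Of the CXCL8 copies, cxcl8a ranged between 1.08 CPM in HOM3 and 8.54 CPM in HOM1, and cxcl8b.1 between 0.592 CPM in WT5 and 8.56 CPM in HET2. Their receptor genes were barely detected, with at most 0.196 CPM of cxcr1 (ENSDARG00000052088) in any library. The gene named CXCR1 (ENSDARG00000054975) had 0.994 CPM in HOM3, from 12 counts, and at most 0.119 CPM in the other 12 libraries.

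The ligand gene ccl39.2 stood at 0.163, 0.693 and 1.32 CPM in HOM skin, 0.238, 0.304, 1.96, 0.997 and 0.6 CPM in HET skin and 4.23, 3.19, 0.0353, 0.29 and 33.9 CPM in WT skin. WT5 was far above all others, followed by WT1 and WT2, while WT3 and WT4 lay at or below most HOM and HET libraries. Its log2 fold change was -3.60 ± 1.65 (SE) in HOM against WT and -3.35 ± 1.30 in HET against WT, with edgeR adjusted p = 0.9999 and 0.812. WT5, WT1 and WT2 were also the 3 libraries with the highest mean of the liver list, at 5.72, 2.72 and 1.0, and all 17 matched liver markers were detected in the series. Without WT1 and WT5 the log2 fold change of ccl39.2 was -0.75 ± 1.26 in HOM against WT and -0.51 ± 1.09 in HET against WT. With the liver list mean as a covariate, chosen after the data were seen, it was 0.96 in HOM against WT and 0.22 in HET against WT. Of the other ccl39 genes, ccl39.1 was also highest in WT1 (0.725 CPM) and WT5 (0.629 CPM), with 0 counts in WT3 and WT4 and at most 24 counts in any library. The ranges were narrower for ccl39.6, at 0.243 to 1.19 CPM, and for ccl39.7, at 0.164 to 0.994 CPM.

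**Figure D5:**
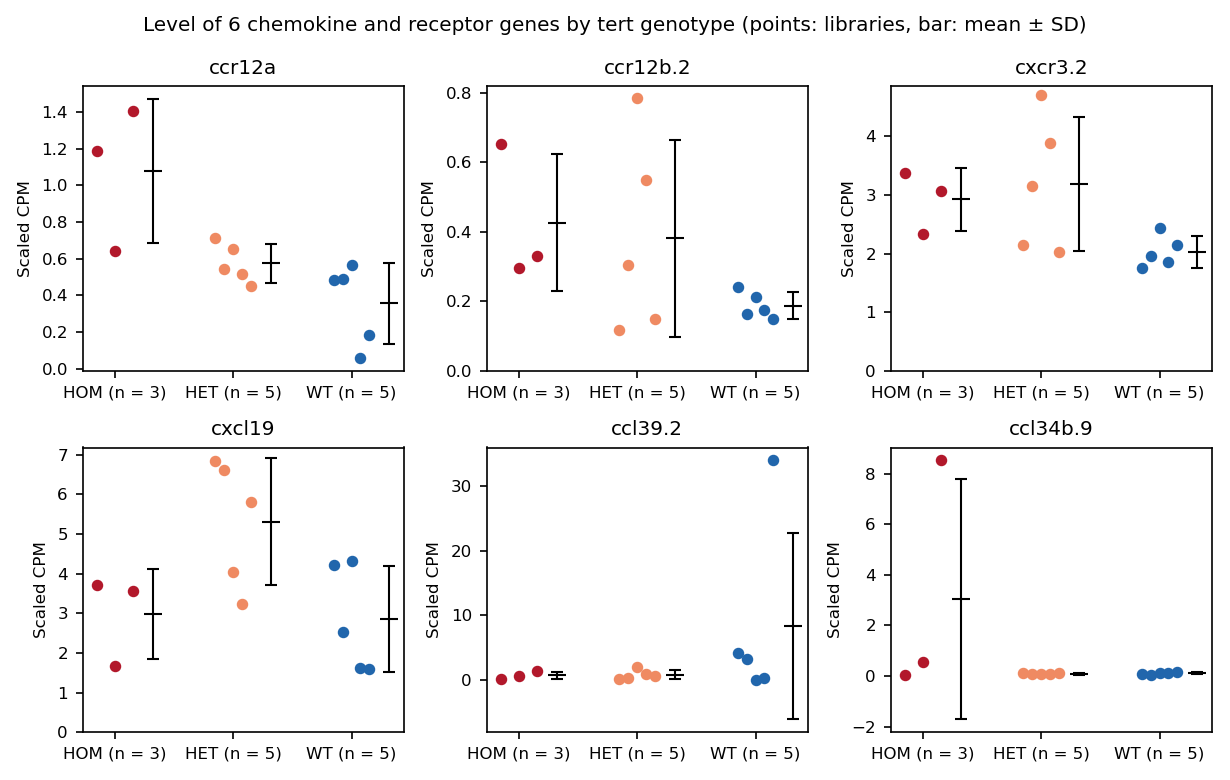
Scaled CPM of ccr12a, ccr12b.2, cxcr3.2, cxcl19, ccl39.2 and ccl34b.9 in each library (points) of HOM (red), HET (orange) and WT (blue) skin, with the mean and SD of each genotype beside the points. The HOM points of ccr12a and ccr12b.2 lie above all WT points, and the means of ccl39.2 in WT and of ccl34b.9 in HOM are carried by WT5 and HOM3.

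The call of ccl34b.9 by DESeq2 rested on a single library. Its level was 0.0465, 0.544 and 8.53 CPM in HOM skin, 0.119, 0.0607, 0.0654, 0.0687 and 0.113 CPM in HET skin and 0.0906, 0.0409, 0.106, 0.116 and 0.148 CPM in WT skin, from 2, 11 and 103 counts in HOM skin, 1 to 3 counts in HET skin and 1 to 4 counts in WT skin. HOM2 and HOM3 were above all other libraries and HOM1 was within the WT range. DESeq2 gave a log2 fold change of 4.90 ± 1.11 (SE) in HOM against WT (adjusted p = 0.0197) and of 5.13 ± 1.15 in HOM against HET (adjusted p = 0.0524). Without HOM3 the value in HOM against WT was 1.47 ± 0.99, and DESeq2 no longer called it. The count filter of edgeR left the gene out, and without that filter edgeR gave 4.79 ± 1.05 with an adjusted p of 1. HOM3 also had the highest CPM of CXCR1 (ENSDARG00000054975), the highest mean of the neutrophil and mast cell list (0.76) and the highest mitochondrial share. Of that list, all 13 matched genes were detected, at a sum of 61.6 to 93.7 CPM in HOM skin, 61.0 to 103 CPM in HET skin and 43.4 to 99.97 CPM in WT skin. By this sum HOM3, at 89.3 CPM, was below HET3 (103 CPM), WT5 (99.97 CPM) and HOM1 (93.7 CPM). The part of these genes in the ccl34b.9 level was not tested. Its neighbours ccl34b.1 and ccl34b.4 stood at 1.32 and 1.49 CPM in HOM3, within the range of the other libraries.

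Further members are given by their ranges. Among CC ligands, ccl20b ranged between 0.889 CPM in WT5 and 11.61 CPM in HOM1, and ccl20a.3 between 0.297 CPM in HOM2 and 5.77 CPM in WT1. CCL20 in mammals draws dendritic cells and T cells through CCR6, whose 2 genes here reached at most 1.57 CPM. The gene ccl44, a neighbour of ccl25b in the genome, ranged between 2.57 and 9.81 CPM, ccl33.3 between 1.39 and 6.13 CPM, and ccl34b.8 between 0.121 and 8.83 CPM. The gene ccr11.1 had no counts in HOM skin, which allows up to 0.0399 CPM over the 3 libraries pooled, and in HET skin it had 1, 0, 8, 22 and 0 counts. In WT skin ccr11.1 had 1 count, in WT3. CXCR5, which places B cells in mammals, and ccr10 and cxcr1 were not above 0.327 CPM in any library. Copies that lie side by side can share reads, which leaves the division of reads between them uncertain. By gene order alone, 32 kept members lay in 12 groups of neighbours, each within 3 places of the next and not all copies of each other. How far they share reads was not measured. Only 50 of the 73 kept members could be placed by symbol. The library kit does not mark strand, so reads of overlapping genes on the other strand cannot be told apart.

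Ligands were set against their textbook receptors across the libraries, and no pair passed the main test. In 19 pairs, Pearson's r of log2 CPM over the 13 libraries ran from -0.65 to 0.62, and 0 pairs passed a two-sided permutation test after Benjamini-Hochberg adjustment. Among the 19 were cxcl11.1 and cxcl11.6 with cxcr3.2, whose ligands split the libraries into clusters, so that their r (0.23 and 0.30) cannot be read as a relation. For cxcl12b and ACKR3 (ENSDARG00000058179) r was 0.62 (permutation p = 0.0215, adjusted p = 0.136) and Spearman's rank correlation was 0.47 (permutation p = 0.109, adjusted p = 0.386). Without HET3 and HET4 that r was 0.57. For ccl19a.1 and CCR7 r was -0.65 (permutation p = 0.0175, adjusted p = 0.136) and the rank correlation was -0.57 (permutation p = 0.0457, adjusted p = 0.386). Without HOM2 and HET3 that r was -0.32, so its size depended on those libraries. They are the farthest from the median of ccl19a.1, and leaving them out also narrows its range. For ccl25b and CCR9 (ENSDARG00000055186) r was -0.55 (permutation p = 0.0567, adjusted p = 0.216). The rank correlation was -0.53 (permutation p = 0.0647, adjusted p = 0.386), and r was -0.39 without WT4 and HOM3. Without scaling beyond library totals, r was 0.30 for cxcl12b with ACKR3 (ENSDARG00000058179). It was -0.47 for ccl19a.1 with CCR7 and -0.51 for ccl25b with CCR9 (ENSDARG00000055186).

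With genotype means taken off first, 4 of the 19 pairs passed when the values were shuffled over all libraries. They were ccl25b with CCR9 (ENSDARG00000055186, r = -0.80, permutation adjusted p = 0.0195), cxcl8a with CXCR1 (ENSDARG00000054975, r = -0.75, permutation adjusted p = 0.0195), CXCL12 with ACKR3 (ENSDARG00000062478, r = -0.72, permutation adjusted p = 0.0377) and ccl19a.1 with CCR7 (r = -0.69, permutation adjusted p = 0.0455). A shuffle over all libraries does not keep the genotype means at 0, so its p-values can be too small. Shuffling within genotypes only does keep them at 0, and was a choice made after the count of 4 was seen. It left 0 pairs, with permutation adjusted p of 0.106, 0.264, 0.153 and 0.153 in the same order. Before the means were taken off, r was -0.64 for cxcl8a with CXCR1 and -0.36 without HOM3 and WT1, and r was -0.54 for CXCL12 with ACKR3 and -0.08 without HOM3 and WT3. The CXCR1 value rests on 12 counts in HOM3.

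The wider signalling machinery showed no call either. Of 61 listed genes that carry chemokine signals inside the cell, such as G protein subunits and kinases, 43 had a match and 42 were tested. In all 3 comparisons 0 of 42 were called by edgeR or DESeq2, and at an unadjusted p under 0.05 edgeR gave 3 with higher levels in HET against WT (beside 2.01% of all genes) and 0 in each of the other comparisons. For HOM against HET the list had a median log2 fold change of -0.03, and its medians against WT were 0.10 in HOM and 0.11 in HET skin. Of 27 listed chemoattractants and receptors outside the symbol rule, 13 had a match, 10 were tested and 0 were called by edgeR in any comparison. Pan-leucocyte markers, all 11 of them tested, had a median log2 fold change of 0.40 in HOM against WT and 0.52 in HET against WT. Of these, 0 were called by edgeR, while DESeq2 called 1 in HET against WT, beside 0.517% of all genes. At an unadjusted p under 0.05 edgeR gave 4 of 11 with higher levels in HET against WT (beside 2.01% of all genes) and 1 in HOM against WT (beside 0.752%). They summed to 524 to 1461 CPM in HOM skin, 617 to 1283 CPM in HET skin and 398 to 1868 CPM in WT skin, and their part in the receptor levels was not tested.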

How the data were processed

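Polyadenylated RNA of 13 skin samples was read with an Illumina TruSeq v2 kit. The authors deposited whole-number read counts per gene, which were tested, and a table labelled RPKM. The deposited RPKM values were handled as a score, since in the 3854 genes above 200 counts in every library the gene length they imply varied by a median of 32.3% with each library's own total and by 0.0026% with the totals taken in turn down the rows. They served only to recover gene lengths, and RPKM was recomputed. The submitters' processing notes name bcl2fastq 1.8.4, STAR 2.4.1d, featureCounts 1.4.6-p4 and GRCz10, without order or settings. Other tables and coordinates were not used here, and a RefSeq table of another assembly (GRCz12tu) served only to tell which genes neighbour each other.

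Groups came from the genotype in the labels. The test was the quasi-likelihood F test of edgeR 4.0.16 under R 4.3.3 (glmQLFit, robust, and glmQLFTest), with 19141 genes kept by filterByExpr, TMM factors of 0.769 to 1.43, all 13 samples in 1 fit, two-sided, and Benjamini-Hochberg adjustment over all genes at 0.05. The SE of a fold change is its size over the square root of its F. Log2 CPM used a prior count of 2. Pairs were tested with 100000 permutations. The limit that a count of 0 allows (3 counts) covers counting error only.

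The members, lists and pairs were chosen with earlier results of these data known. Named by rule were the 8 ligands and 8 receptors with the highest mean CPM, members with an unadjusted edgeR p under 0.05 and members called by edgeR or DESeq2. Others were chosen after their values were seen. As the name table gives copies 1 human-form symbol, the pairs were set out again by identifier, and pairs without a symbol were not run. Alternatives were DESeq2 1.42.0, its size factors, no scaling, no mitochondrially encoded genes, other filters, no robust moderation, only the groups compared, 4 list means as covariates, a looser threshold (0.1) and fits with a single sample left out. Chosen after the data were seen were the liver list as covariate, leaving out WT1 and WT5, DESeq2 without HOM3 and the shuffle of pairs within genotypes.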

Additional observations from a re-analysis of the deposited data

Results flagged for a closer look

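Among the members named by rule, levels in HET and in WT were each searched for a library far from the others on the log2 scale, which chance alone finds in about 1 in 20 groups. It was found in 2 of 40 groups, no more than that rate gives. ACKR3 (ENSDARG00000058179) in WT skin was 12.7 CPM in WT4, below 20.9 to 25.5 CPM in the other WT libraries. The level of cxcr3.3 in WT skin was 3.41 CPM in WT5, below 7.55 to 9.82 CPM in the others. HOM, with 3 libraries, was not searched.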

How the results depend on the processing

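The count of members called was 0 in every comparison and under every alternative of the edgeR fit, also when any library was left out (0 to 0), and it was 1 with DESeq2 in HOM against WT (ccl34b.9), which was 0 without HOM3. With libraries left out, the median log2 fold change of members ran from -0.02 to 0.29 in HOM against WT, from 0.12 to 0.36 in HET against WT and from -0.27 to 0.00 in HOM against HET. Pairs that passed numbered 4 with genotype means taken off first and values shuffled over all libraries, where p-values can be too small. They numbered 0 with the shuffle kept within genotypes, 0 without the 2 farthest samples and 0 without scaling. Log2 fold changes that reversed were all of genes that did not pass the test, and the cause was not tested. In HET against WT, ccl19a.2 was -0.12 with the interferon list as covariate and -0.44 without WT1 and WT5, ccl25b was -0.48 without WT1 and WT5 and -0.15 without scaling, ccl27b was 0.075 with the interferon list and 0.26 with the pan-leucocyte list, ccl39.2 was 0.22 with the liver list and ccr12a was -0.36 with the pan-leucocyte list. In HOM against WT, ccl19a.2 was 0.35 with DESeq2 without HOM3, 0.27 with the pan-leucocyte list and 0.068 with the skeletal muscle list, ccl25b was 0.022 with the keratinocyte list and 0.069 with the pan-leucocyte list, ccl27b was 0.12 with the keratinocyte list and ccl39.2 was 0.96 with the liver list. There cxcl19 was -0.080 with DESeq2 without HOM3, -0.15 with the liver list, -0.085 without scaling, -0.38 with the pan-leucocyte list and -0.018 with the skeletal muscle list. With libraries left out, ccl19a.2 ran from -2.15 to 0.77 in HOM against WT and from -1.25 to 1.25 in HET against WT, ccl25b from -1.40 to 0.26 and from -0.19 to 0.83, and in HOM against WT cxcl12b from -0.70 to 0.995 and cxcl19 from -0.12 to 0.35. No paired analysis was possible because the labels give no replicate numbers. HOM had only 3 libraries, and the leading ligands varied widely within each genotype. Differences well above their standard errors did not pass after adjustment over all genes, such as that of the receptor gene ccr12a. Its log2 fold change in HOM against WT was 1.55 ± 0.52, with an unadjusted edgeR p of 0.0115 and an adjusted p of 0.9999.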
